A study of Mus musculus with 36 samples.

Results

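The genes described here are the 10 listed genes of the cAMP odor transduction cascade: Omp, Gnal, Gng13, Adcy3, Cnga2, Cnga4, Cngb1, Ano2, Slc24a4 and Pde1c. They were chosen by name, and the transcript entries of the deposited tables were assigned to them by RefSeq accession, so that 10 of the 24676 genes listed for every tissue were members. All 10 were far higher in the main olfactory epithelium (MOE) than in the vomeronasal organ (VNO) or the olfactory bulb (OB), by 5.92-fold to 98.1-fold over VNO and by 9.52-fold to 355-fold over OB. None passed the test between sexes or between housing conditions within a tissue.

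In an olfactory sensory neuron, an odorant receptor activates the G protein Golf, Golf activates an adenylyl cyclase in the cilia, and the cAMP formed opens a cation channel. The calcium that enters opens a chloride channel, which adds to the depolarisation, and it is removed by an exchanger while a phosphodiesterase degrades the cAMP. Vomeronasal neurons signal instead through Gnai2 or Gnao1 and the channel Trpc2, and the bulb holds the axons of olfactory sensory neurons among its own neurons.

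The study asked whether long exposure to the odors of the other sex alters gene expression in the olfactory tissues. The mice were C57BL/6 and were dissected at 6 months of age, after living since weaning in cages of 4 animals. Females (SF) and males (SM) were kept apart from the other sex, or both were caged together, which gives females (CF) and males (CM) of mixed cages. From weaning, SF and SM cages stood in separate rooms that held a single sex. The mixed cages bred, and their pups were killed soon after birth. Sex in separated mice therefore cannot be told apart from room, nor housing from room and breeding. Each tissue gave 12 libraries, 3 in each of the 4 groups. Every library was made from ribosome-depleted total RNA pooled from several mice of one group, and the labels and the methods differ on how many, so each replicate is a pool and its spread does not show that of single mice. The levels are FPKM, which the authors computed by dividing the fragments of a transcript by its length and by the depth of the library, and levels of different genes were compared only on this scale. Because whole tissues were used, fewer neurons and less RNA in each neuron cannot be told apart.

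The fragments behind the FPKM values, estimated from their confidence limits, came to 3007100 to 5845531 in an MOE library, 3372887 to 6432012 in a VNO library and 3251931 to 6009280 in an OB library. In each library this is well below the aligned pairs that the paper lists, so the estimates are not counts. Defining markers followed the tissue labels: the mean FPKM of Trpc2 was 43.0 in VNO but 0.938 in MOE and 0.199 in OB, and Gad1, of the bulb's interneurons, had 180 in OB, 0.236 in MOE and 1.36 in VNO. The third CM library of MOE stood apart, with a median log2 difference of -0.55 over all genes and of -0.67 over the members from the median MOE library. All 10 members lay below their MOE median in it and in the second SF library (median log2 difference of -0.37 over the members, against -0.15 over all genes). In the third CM library of MOE, the marker lists of olfactory sensory neurons (-0.61), sustentacular cells (-0.65), glia (-0.60) and ciliated cells (-0.88) were low as well, and their part in the members' values was not tested. Leaving out either of these MOE libraries changed none of the members' calls given here. By the paper's figures, the third CM library of MOE had the lowest share of aligned reads of all 36 libraries. In VNO, the first SF library had the fewest estimated fragments (3372887) and the lowest median over all genes (log2 difference of -0.16). It was the lowest VNO library for 3 members, and no member was called within VNO when it was left out.

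Omp, the olfactory marker protein of mature olfactory and vomeronasal neurons, was the most abundant member in MOE and VNO. Its FPKM ranged from 638 to 1130 in MOE (median 1018, mean 983 ± 149, SD, n = 12), from 80.6 to 116 in VNO (median 102, mean 101 ± 12.5) and from 27.6 to 42.7 in OB (median 35.1, mean 35.1 ± 4.38). Every MOE library lay above every VNO library, and every VNO library above every OB library. Omp ranked 44 among 24742 genes in MOE, 163 among 24737 in VNO and 713 in OB.

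The subunits of the G protein were lower in VNO than in OB. Gnal, the alpha subunit of Golf, ranged from 57.2 to 101 FPKM in MOE (median 86.9, mean 83.9 ± 12.7), from 0.804 to 2.52 in VNO (median 1.42, mean 1.65 ± 0.623) and from 3.38 to 5.55 in OB (median 4.10, mean 4.08 ± 0.577). Gng13, a gamma subunit found with Golf in olfactory neurons, ranged from 384 to 811 FPKM in MOE (median 607, mean 629 ± 125), from 14.9 to 34.0 in VNO (median 22.0, mean 22.4 ± 5.50) and from 53.4 to 89.3 in OB (median 64.96, mean 66.0 ± 9.55). For both genes all 12 OB libraries lay above all 12 VNO libraries, the reverse of Omp. Gng13 was the most abundant member in OB, above Omp in 12 of 12 libraries.

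Adcy3, the adenylyl cyclase of olfactory cilia, ranged from 75.5 to 142 FPKM in MOE (median 108, mean 110 ± 19.8), from 4.98 to 7.72 in VNO (median 6.60, mean 6.58 ± 0.985) and from 4.73 to 6.12 in OB (median 5.42, mean 5.43 ± 0.453). Its VNO and OB levels overlapped, with 8 of 12 VNO libraries above all OB libraries.

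The cyclic nucleotide-gated channel has 3 subunits among the members. Cnga2, the principal subunit that binds cAMP and forms the pore, ranged from 131 to 259 FPKM in MOE (median 215, mean 213 ± 36.9), from 0.880 to 3.72 in VNO (median 2.09, mean 2.18 ± 1.02) and from 0.329 to 0.923 in OB (median 0.593, mean 0.602 ± 0.167). Cnga4, a modulatory subunit, ranged from 46.6 to 82.2 in MOE (median 74.7, mean 71.3 ± 10.2) and from 2.69 to 4.86 in VNO (median 3.77, mean 3.86 ± 0.625). Cngb1, the other modulatory subunit, ranged from 11.2 to 19.8 in MOE (median 15.5, mean 16.0 ± 2.70) and from 2.22 to 3.36 in VNO (median 2.68, mean 2.69 ± 0.364). Both modulatory subunits were near the limit of detection in OB. There, Cnga4 had 0.105 to 0.308 FPKM, from an estimated 5.0 to 14.7 fragments a library, and Cngb1 had 0.0751 to 0.224 FPKM, from 4.67 to 29.1 fragments. Cnga2 in VNO had the largest relative spread of any member in MOE or VNO, with a coefficient of variation of 46.9% over the 12 libraries, and Gnal followed with 37.8%, while the 7 members other than these and Gng13 (24.6%) had 12.3% to 18.1%.

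Ano2, the calcium-activated chloride channel of olfactory cilia, ranged from 43.9 to 80.9 FPKM in MOE (median 73.7, mean 70.1 ± 11.4), from 5.51 to 8.20 in VNO (median 7.04, mean 6.95 ± 0.897) and from 0.951 to 1.59 in OB (median 1.24, mean 1.27 ± 0.194). Slc24a4, the potassium-dependent sodium-calcium exchanger that extrudes calcium after a response, was the least abundant member in MOE and VNO. It ranged from 9.09 to 15.6 FPKM in MOE (median 11.98, mean 12.004 ± 1.94), from 0.918 to 1.79 in VNO (median 1.26, mean 1.27 ± 0.230) and from 0.607 to 1.20 in OB (median 0.906, mean 0.875 ± 0.165). Pde1c, the calcium- and calmodulin-stimulated phosphodiesterase of the cilia, ranged from 38.9 to 70.5 FPKM in MOE (median 66.4, mean 62.2 ± 9.21), from 6.13 to 9.33 in VNO (median 7.91, mean 7.80 ± 1.02) and from 4.44 to 6.42 in OB (median 5.51, mean 5.47 ± 0.557). All 12 VNO libraries lay above all OB libraries for Ano2, 10 for Pde1c and 8 for Slc24a4.

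**Figure D1:**
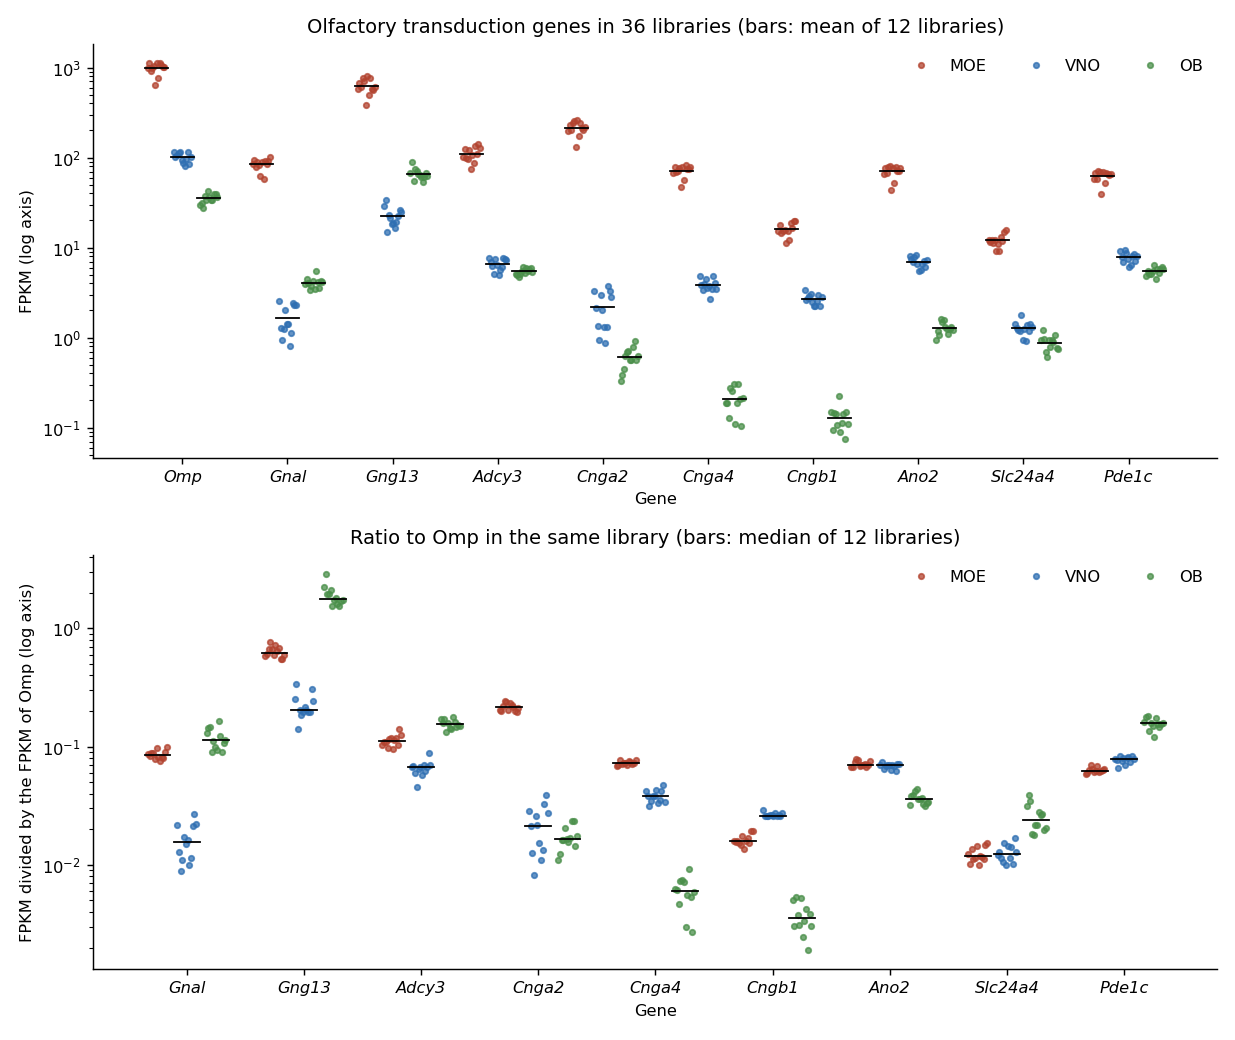
The upper panel plots the FPKM of each of the 10 genes in each of 36 libraries on a log axis, with a bar at the mean of the 12 libraries of a tissue, and the lower panel plots the ratio of the other 9 genes to Omp in the same library, with a bar at the median. All MOE libraries lie above all VNO and OB libraries for each gene, and the ratio to Omp is nearly the same in MOE and VNO for Ano2 and Slc24a4 but not for Cnga2 or Gnal.

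By mean FPKM, the order of the levels in MOE was Omp, Gng13, Cnga2, Adcy3, Gnal, Cnga4, Ano2, Pde1c, Cngb1 and Slc24a4. Each gene was above the next in all 12 MOE libraries, except that Cnga4 was above Ano2 in 10 of 12, so the order of these neighbours is not settled beyond the spread. In VNO the order was Omp, Gng13, Pde1c, Ano2, Adcy3, Cnga4, Cngb1, Cnga2, Gnal and Slc24a4, so that Cnga2 and Gnal, unlike in MOE, lay below both modulatory channel subunits, Cnga4 and Cngb1. The weakest steps there were Ano2 above Adcy3 and Gnal above Slc24a4, each in 9 of 12 libraries, and Cngb1 above Cnga2 and Cnga2 above Gnal, each in 10 of 12. In OB the order was Gng13, Omp, Pde1c, Adcy3, Gnal, Ano2, Slc24a4, Cnga2, Cnga4 and Cngb1, with Pde1c above Adcy3 in only 7 of 12 libraries and Cnga4 above Cngb1 in 10.

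The promoter sequences are shown because all members were higher in MOE than in the other tissues and because genes of this cascade are known for sites of the olfactory factor EBF (Olf-1) near their starts. RefSeq windows of 300 bases (250 before a start site and 50 after it) were searched for 8 of the 10 members, 14 windows in all. They were on GRCm38.p6, a build other than the mm9 build of the FPKM values. No window of Omp or Gnal was searched, so the counts of members' windows leave these genes out. The motif TCCCNNGGG, the core of that site, was searched on both strands and was in 3 of the 14 windows, while 6.56% of all 32851 RefSeq windows of the same length held it. The homeodomain core TAATTA was in 0 of the 14 windows and in 5.29% of all windows, so the motifs overlapped in none of the members' windows. A match is only a run of letters and no evidence of binding. The windows with a match (capitals) belong to Cnga2 (chrX:71991599-71991898, plus strand, first base of the match at -67 from the start site), Gng13 (chr17:25716922-25717221, plus strand, at -94) and one of the starts of Ano2 (chr6:125710938-125711237, plus strand, at -67), and the window of Cnga4 (chr7:105404318-105404617, plus strand) is given as one without a match.
Cnga2: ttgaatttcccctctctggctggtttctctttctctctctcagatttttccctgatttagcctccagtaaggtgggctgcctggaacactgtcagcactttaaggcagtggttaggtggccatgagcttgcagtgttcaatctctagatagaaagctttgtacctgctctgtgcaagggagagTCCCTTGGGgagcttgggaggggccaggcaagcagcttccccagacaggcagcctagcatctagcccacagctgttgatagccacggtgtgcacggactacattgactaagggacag
Gng13: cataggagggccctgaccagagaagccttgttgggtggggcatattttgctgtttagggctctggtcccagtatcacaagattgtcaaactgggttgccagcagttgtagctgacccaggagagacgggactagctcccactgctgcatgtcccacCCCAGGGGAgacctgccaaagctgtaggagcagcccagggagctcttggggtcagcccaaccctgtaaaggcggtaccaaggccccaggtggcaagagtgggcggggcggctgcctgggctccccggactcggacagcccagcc
Ano2: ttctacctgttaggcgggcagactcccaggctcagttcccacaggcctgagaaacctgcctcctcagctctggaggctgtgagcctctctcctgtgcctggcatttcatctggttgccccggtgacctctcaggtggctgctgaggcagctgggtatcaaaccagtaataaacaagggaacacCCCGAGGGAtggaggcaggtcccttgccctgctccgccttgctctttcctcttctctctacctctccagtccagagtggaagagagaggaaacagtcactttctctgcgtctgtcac
Cnga4: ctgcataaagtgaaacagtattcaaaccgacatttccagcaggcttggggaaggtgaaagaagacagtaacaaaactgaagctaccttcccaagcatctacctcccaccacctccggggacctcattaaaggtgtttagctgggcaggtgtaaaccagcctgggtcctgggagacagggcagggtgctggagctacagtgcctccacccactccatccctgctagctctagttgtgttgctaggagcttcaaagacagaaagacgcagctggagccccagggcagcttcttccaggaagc

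MOE was compared with VNO by limma on log2(FPKM + 0.5) over all 36 libraries and 14642 genes, with Benjamini-Hochberg adjustment. All 10 members were called higher in MOE, where 82.6% of all genes tested differed in either direction at an adjusted p under 0.05. The log2 differences of the members had a median of 3.61, against 0.15 over all genes. Of the 10 members, 7 were higher by a log2 difference of at least 3 (Gnal, Gng13, Adcy3, Cnga2, Cnga4, Omp and Ano2), as were 1.52% of all genes. All 10 had every MOE library above every VNO library, as did 15.8% of all genes. The difference was largest for Cnga2 (log2 difference 6.40, SE 0.125, adjusted p = 1.66e-27; 98.1-fold between mean FPKM) and next for Gnal (5.33, SE 0.103, 1.24e-27; 50.8-fold) and Gng13 (4.79, SE 0.118, 4.81e-25; 28.0-fold). It was smallest for Cngb1 (2.35, SE 0.067, adjusted p = 1.93e-23; 5.92-fold). Adcy3 and Cnga4 lay between, at 3.96 and 4.04, as did Omp (3.27), Ano2 (3.23), Pde1c (2.91) and Slc24a4 (2.81). The fold differences on this scale understate those of genes with low FPKM, because of the added 0.5.

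MOE was also above OB for all 10 members, where 85.1% of all genes were called in either direction. The members' median log2 difference was 4.45, against 0.07 over all genes, and 10 of 10 differed by at least 3, as did 4.47% of all genes in this direction. Every MOE library was above every OB library for all 10, as for 24.7% of all genes. On the log2 scale Cnga2 differed most, by 7.59 (SE 0.125, adjusted p = 3.69e-30), followed by Cnga4 (6.66, SE 0.079, 1.12e-33), Ano2 (5.30), Omp (4.78) and Cngb1 (4.69). Adcy3 (4.21), Gnal (4.20), Pde1c (3.38), Gng13 (3.23) and Slc24a4 (3.18) differed least on it. This order depends on the constant added before the logarithm, which lowers the differences of genes with low FPKM in OB. By mean FPKM, Cngb1 differed 124-fold, more than Ano2 (55.1-fold) and Omp (28.0-fold). Gng13 differed least by this measure (9.52-fold), below Slc24a4 (13.7-fold). Against VNO, by contrast, Gnal and Gng13 had been among the largest. These comparisons share the MOE libraries, so each gene's values stand side by side and are not independent.

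Between VNO and OB, 8 members were called higher in VNO and 2 lower, and 85.8% of all genes were called. The median over the members was 0.83, against -0.12 over all genes. The largest differences were those of Cnga4 (log2 2.62, adjusted p = 2.24e-23), Cngb1 (2.34, 5.80e-24), Ano2 (2.07) and Omp (1.51), and these were the 4 members with every VNO library above every OB library, as for 28.2% of all genes. Cnga2 differed by 1.19, with 11 of 12 VNO libraries above all OB libraries. This order also depends on the added constant. By mean FPKM, Cngb1 (21.0-fold) was above Cnga4 (18.8-fold), and Cnga2 (3.61-fold) above Omp (2.88-fold). Pde1c (0.47, adjusted p = 3.30e-06), Slc24a4 (0.37, 4.93e-05) and Adcy3 (0.25, 0.00339) differed little. Slc24a4 was no longer called after quantile normalisation (0.02, adjusted p = 0.797). Gng13 was lower in VNO by a log2 difference of -1.56 (adjusted p = 2.66e-13) and Gnal by -1.14 (1.98e-11), and both had every VNO library below every OB library, as for 34.4% of all genes.

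**Figure D2:**
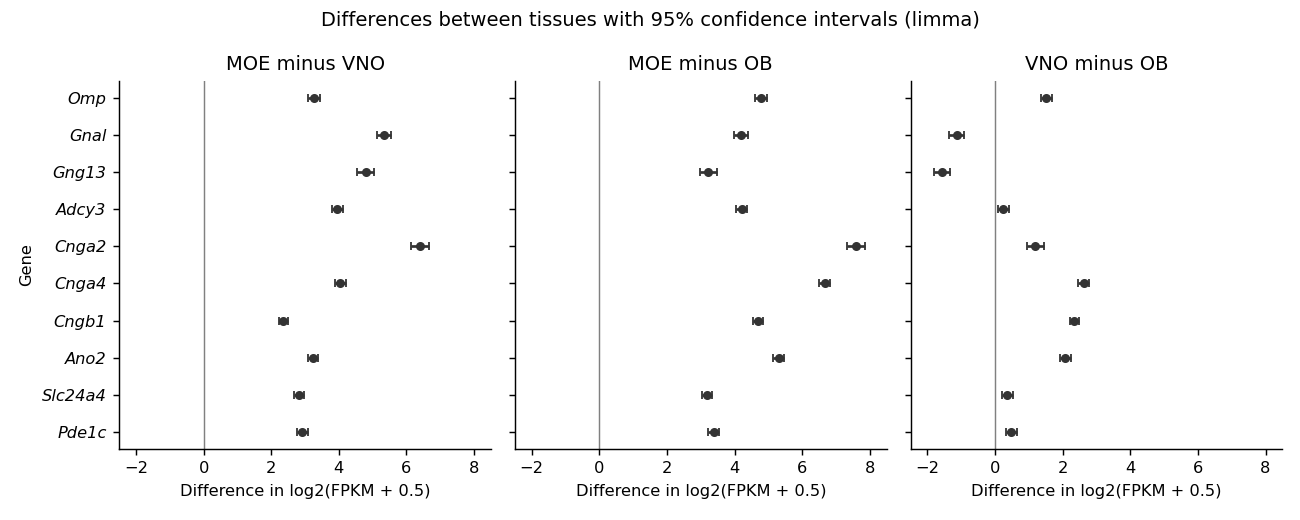
The 3 panels give the difference between 2 tissues for each of the 10 genes in log2(FPKM + 0.5), with 95% confidence intervals from limma over 36 libraries. All 10 points lie above 0 in the 2 comparisons with MOE, while Gnal (-1.14) and Gng13 (-1.56) lie below 0 between VNO and OB.

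Set against Omp, a gene of mature sensory neurons, in the same library, the members fell into several kinds in VNO. The ratio of Ano2 to Omp had a median of 0.0700 in MOE and 0.0696 in VNO, and that of Slc24a4 0.0118 and 0.0125. For both genes the ranges of the MOE and VNO libraries overlapped, so that they stood to Omp in VNO about as they did in MOE. For Pde1c the ranges also overlapped, but its median was higher in VNO (0.0784) than in MOE (0.0627). The VNO median was above the highest MOE library (0.0704).
The ratio of Cnga2 was 0.198 to 0.244 in MOE (median 0.216) and 0.00829 to 0.0388 in VNO (median 0.0215), without overlap. That of Gnal was likewise lower in every VNO library (median 0.0157) than in any MOE library (0.0847). Gng13 (0.204 in VNO, 0.624 in MOE), Adcy3 (0.0667, 0.112) and Cnga4 (0.0380, 0.0727) were also lower relative to Omp in every VNO library. Cngb1 was the reverse: its ratio was 0.0257 to 0.0291 in VNO (median 0.0262) and 0.0137 to 0.0195 in MOE (median 0.0158), higher in every VNO library. In OB the ratios of Cnga2 (0.0165), Cnga4 (0.00600), Cngb1 (0.00354) and Ano2 (0.0361) had medians below those in MOE, and those of Gng13 (1.79), Pde1c (0.158), Adcy3 (0.156), Gnal (0.113) and Slc24a4 (0.0241) had medians above them.

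The balance of channel subunits differed between tissues in the same way. The ratio of Cnga4 to Cnga2 was 0.294 to 0.371 in MOE (median 0.344) and 1.23 to 4.16 in VNO (median 1.77), without overlap. That of Cngb1 to Cnga2 was 0.0587 to 0.0984 in MOE (median 0.0771) and 0.670 to 3.13 in VNO (median 1.22). In OB the ratio of Cnga4 to Cnga2 (0.186 to 0.570, median 0.350) spanned the MOE values, and that of Cngb1 to Cnga2 had a median of 0.213. The principal subunit thus had the higher FPKM in every MOE library, and Cnga4 had the higher FPKM in every VNO library. These ratios are descriptions of the libraries and were not tested.

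Several members are listed with more than 1 RefSeq transcript, and the estimated shares of these transcripts differed between tissues. Of the 2 entries of Gnal, NM_010307 (mm9, chromosome 18, 67293214 to 67386445) held all of the FPKM in MOE and VNO. NM_177137, which starts farther upstream at 67247952, was listed at 0 in all MOE and VNO libraries and was above 0 in 12 of 12 OB libraries, with a median share of 39.4% of the gene (30.7% to 47.3%). Gng13 showed a like pattern. NM_022422 (chromosome 17, 25854117 to 25856047) held all of its FPKM in MOE, whereas the shorter NM_001357782 (from 25854473) was above 0 in 0 MOE libraries, 1 VNO library and 11 OB libraries, with a median share of 22.0% and a highest share of 38.3% in OB.
Pde1c shifted between 2 transcripts. NM_001159953 (chromosome 6, 56019798 to 56312386) had median shares of 89.5%, 82.3% and 37.3% in MOE, VNO and OB, and NM_001159957 (56050434 to 56319628) had 10.48%, 17.7% and 53.5%. For Adcy3 on chromosome 12, NM_138305 (4134153 to 4213524) had median shares of 64.5%, 48.3% and 42.1% in MOE, VNO and OB, and NM_001159537 (4133397 to 4213524) had 35.03%, 40.8% and 43.9%. Single libraries of VNO ranged widely for Adcy3, from 31.5% to 76.9% for NM_138305, so its shares in VNO and OB did not separate. The shares are Cufflinks estimates that divide fragments among overlapping transcripts, and no test was run on them. An entry listed at 0 in MOE beside an abundant entry of the same gene need not be a measured absence.

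The other 5 genes had their whole FPKM on one listed entry in every library, as did Cngb1. Omp (NM_011010) lies at chromosome 7, 105291869 to 105293957, within the locus of Capn5, whose mean FPKM was 0.978 in MOE and 2.36 and 1.32 in VNO and OB. Cnga4 lies on the same chromosome (112553082 to 112557252), Cnga2 on chromosome X (69237188 to 69255557), Ano2 on chromosome 6 (125640437 to 125990146) and Slc24a4 on chromosome 12 (103367629 to 103504959). Cngb1 was measured by NM_001195413 (chromosome 8, 97762943 to 97830485), while NM_145601, given at 2 loci, was listed at 0 in all 36 libraries. Other genes overlap members. Chtf18, beside Gng13, Cenpo, beside Adcy3, and Mppe1, beside Gnal, were listed at 0 in all MOE libraries, which need not be a measured absence beside abundant members. In VNO, Cenpo had a mean of 1.23 FPKM and Mppe1 3.17, above that of Gnal (1.65), and Mppe1 had 2.31 in OB. Chmp1b, also beside Gnal, had means of 10.9, 7.32 and 6.29 FPKM in MOE, VNO and OB. How fragments were divided between overlapping genes was not tested.

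**Figure D3:**
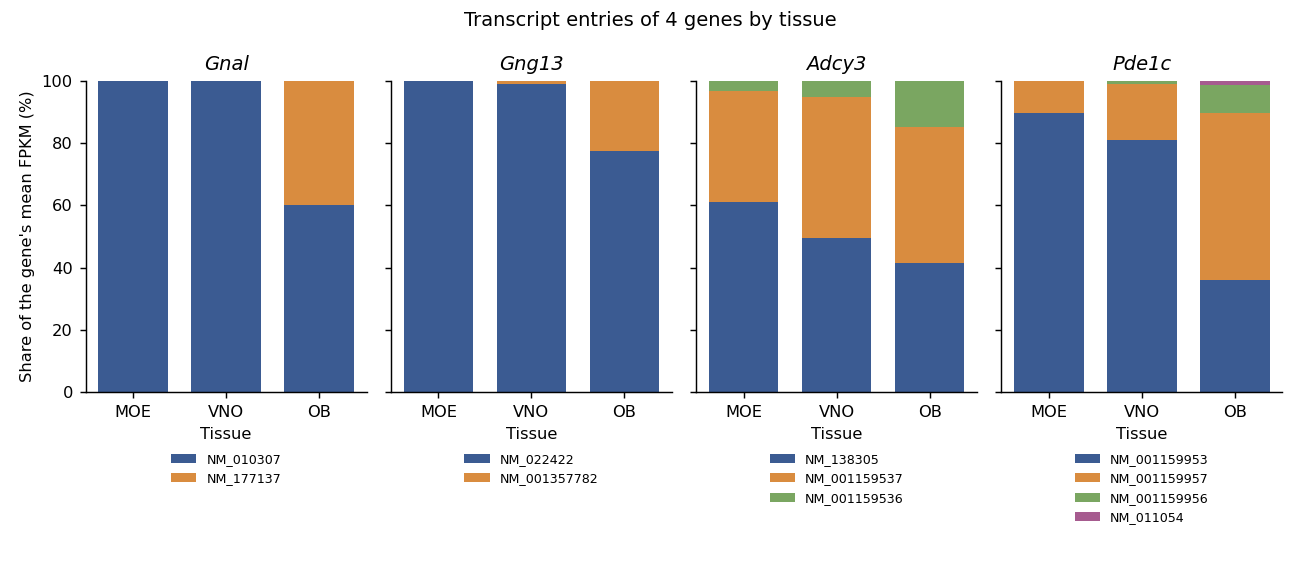
Stacked bars give the share, in percent, of the gene's mean FPKM over 12 libraries that each RefSeq entry held in MOE, VNO and OB, for the 4 genes with more than 1 entry above 0. The second entry of Gnal and of Gng13 appears almost only in OB, and the larger share of Pde1c passes from NM_001159953 in MOE and VNO to NM_001159957 in OB.

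Of 15 other genes of the odor response, its regulation and receptor trafficking, 12 were called higher in MOE than in VNO and 3 lower, where 48.6% and 34.0% of all genes were called in these directions (median log2 difference 0.98, against 0.15 over all genes). Against OB, 10 were higher and 3 lower, beside 45.7% and 39.4% of all genes (median 1.29, against 0.07). Between VNO and OB, 8 were higher and 6 lower, near the 37.8% and 48.0% of all genes (median 0.17, against -0.12). Stoml3, a protein of sensory cilia, and Ric8b, which promotes exchange of guanine nucleotide on Golf, differed most between MOE and VNO. Stoml3 had means of 276, 5.57 and 4.15 FPKM in MOE, VNO and OB (log2 differences of 5.58 and 5.90), and Ric8b 129, 3.82 and 7.28 (4.89 and 4.04). Ric8b, like its partner Gnal, was lower in VNO than in OB (log2 -0.86, adjusted p = 8.83e-11). Rtp1 and Rtp2, which carry odorant receptors to the cell surface, differed most between MOE and OB, by 6.48 and 6.44. The lowest of the list against VNO were the kinase Grk3 (-0.91) and Gnas (-0.75), the widely used relative of Gnal.

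Most of the listed relatives of the members did not share their pattern. Of 25 listed genes, 20 passed the filter on low FPKM, 3 of them higher and 17 lower in MOE than in VNO (median -0.96, against 0.15 over all genes), and 5 higher and 15 lower than in OB (median -1.31, against 0.07). Of all genes, 48.6% were called higher and 34.0% lower than in VNO, and 45.7% and 39.4% than in OB. The list includes Gnai2 and Gnao1, through which vomeronasal neurons signal, so its counts against VNO depend partly on this choice. Gnas was the most abundant relative of Gnal in all 3 tissues, with mean FPKM of 58.4, 97.8 and 187 in MOE, VNO and OB. Gnal was above it only in MOE, at 83.9. The other channel genes of the family that were listed, Cnga1, Cnga3 and Cngb3, had means of at most 0.108 FPKM in any tissue. Ano1, the relative of Ano2, had a mean of 5.41 FPKM in MOE and 15.6 in VNO, and in VNO this was above Ano2 (6.95). Slc24a2 came close to Slc24a4 in MOE (10.53 against 12.004) and was above it in VNO (3.74 against 1.27) and OB (6.44 against 0.875). Among the other phosphodiesterases of the family, Pde1b had a mean of 31.8 FPKM in OB, against 5.47 for Pde1c, but 1.22 in MOE. Among cyclases, Adcy5 (8.12) was the most abundant relative of Adcy3 in VNO and Adcy2 (20.4) in OB, and both were above Adcy3 there. Among gamma subunits, Gng2 (21.6) was about level with Gng13 (22.4) in VNO. Gng3, listed at 0 in all MOE libraries, had 10.2 FPKM in OB.

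Over the 12 MOE libraries, the mean of the members' log2(FPKM + 0.5) was tracked most closely by Adipor1 (Pearson r = 0.989), Endod1 (0.988), Gldn (0.984), Ssbp2 (0.983) and Tmem150c (0.982) among 6107 genes with a mean of at least 5 FPKM. Over all 36 libraries, Rgr (0.998) was closest, followed by Atp8b3, Serpinb7, Cyp1a2 and Gal3st2c (each 0.997). The points of the first share the shift of whole libraries described above for MOE, and those of the second share the difference between tissues, so both are descriptions only. Each member against the mean of the other 9 had an r in MOE between 0.717 (Slc24a4) and 0.985 (Cnga4).

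Within MOE, no member passed the test in any comparison of sex or housing, and the groups overlapped for nearly all. For SF against SM, 0 of 10 were called (0.0944% of 13771 genes were), 0 had an unadjusted p under 0.05 (4.16%) and 0 had groups that did not overlap (14.2%). For CF against CM the counts were also 0, 0 and 0 (0.0436%, 1.76% and 4.13%), although all 10 estimates were above 0, with a median log2 difference of 0.15 against 0.10 over all genes. This direction was not stable. Cnga2 had 244 and 253 FPKM in the first and second CM libraries and 131 in the third, against 199 to 228 in CF. Among the alternatives the lowest estimates were -0.30 for Gng13 and -0.27 for Cnga2, while those of Cngb1 and Slc24a4 stayed above 0. The interaction of sex and housing gave 0 calls (0.0290%) and 0 unadjusted (4.59%). SF against CF gave 0, 0 and 0 (0.0363%, 2.03% and 10.4%). For SM against CM, 0 were called (0.0654%) and 0 were under 0.05 unadjusted (6.93%), and 1 had groups that did not overlap (13.4%). This was Cngb1, with 16.4, 19.8 and 19.7 FPKM in SM and 15.3, 15.6 and 11.2 in CM. Its log2 difference was 0.41 (adjusted p = 0.700 by limma), and the third CM library was the lowest. The members' median in that comparison was 0.25, against 0.17 over all genes. The 95% intervals of the SF and SM differences reached from -0.75 to 0.84 over the members, so differences of this size lie within them.

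In VNO, the members' estimates were lower in SF than in SM and CF, and none passed the test after adjustment. For SF against SM, 0 of 10 members were called (0.0721% of 13864 genes), 3 had an unadjusted p under 0.05 (8.79%), and all 10 estimates were below 0, with a median log2 difference of -0.24 against -0.08 over all genes. In 4 of 10 every SF library lay below every SM library, as in 12.9% of all genes (14.5% in either direction).
Cnga2 had 1.33, 0.880 and 1.31 FPKM in SF and 3.72, 3.31 and 2.80 in SM (log2 difference -1.18, SE 0.306, adjusted p = 0.334 by limma). The groups did not overlap, and the mixed cages spanned both, with 3.30, 2.15 and 1.33 in CF and 0.935, 3.01 and 2.04 in CM. Fitted on the 6 SF and SM libraries alone, the same difference passed the threshold at an adjusted p of 0.0486.
Gnal had 1.42, 0.804 and 1.11 FPKM in SF and 2.45, 2.32 and 2.29 in SM (-0.84, SE 0.237, adjusted p = 0.388 by limma), with 2.52, 1.29 and 0.947 in CF and 1.25, 2.00 and 1.42 in CM. By mean FPKM its groups stood in the order of those of Cnga2, with SF lowest and SM highest. Adcy3 had 4.98, 5.63 and 6.09 in SF and 7.62, 7.56 and 7.23 in SM (-0.40, SE 0.121, adjusted p = 0.450 by limma). Gng13 had 18.7, 16.4 and 19.2 in SF and 22.4, 26.2 and 25.1 in SM (-0.43, SE 0.228, adjusted p = 0.605 by limma), and its p was above 0.05 before adjustment. The highest and the lowest Gng13 values of VNO were both in CF (34.0 and 14.9).

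**Figure D4:**
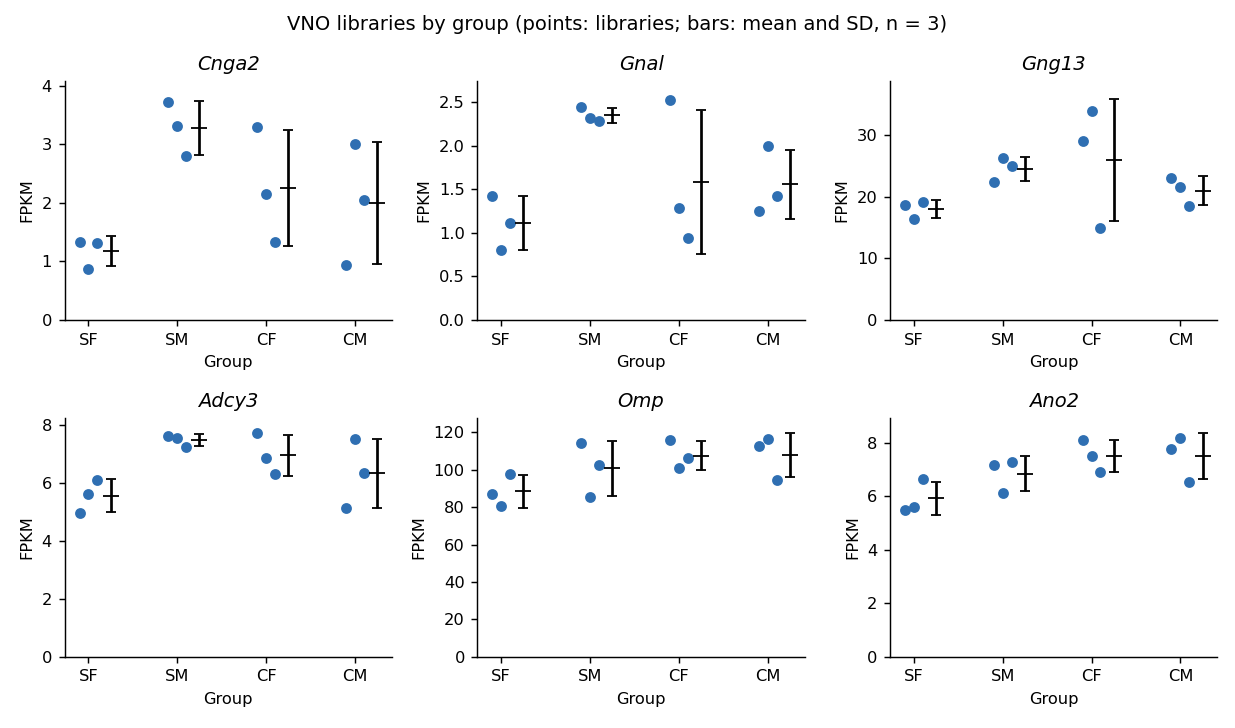
Points give the FPKM of 6 members in the 3 VNO libraries of each group, beside the mean with its SD (n = 3). The SF and SM points do not overlap for Cnga2, Gnal, Gng13 and Adcy3, while those of Omp and Ano2 overlap, and no difference passed the adjusted test.

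Markers of olfactory sensory neurons and of supporting cells differed between the same VNO libraries, also without passing the test. Cyp2g1, a sustentacular cell gene with a mean of 539 FPKM in MOE, had a mean of 4.44 in SF and 9.79 in SM, with every SF library lower (log2 -1.06, adjusted p = 0.467 by limma). Stoml3 had 3.43 and 7.67 (-1.08, adjusted p = 0.410). Over the whole lists, 6 of 7 olfactory sensory neuron markers had estimates below 0 (summed FPKM of 68.5 to 93.4 in SF and 89.3 to 101 in SM), as did 5 of 5 sustentacular markers (368 to 424 and 390 to 486), with no marker at 0 in either. The vomeronasal neuron markers had 123 to 137 in SF and 118 to 147 in SM, and Trpc2 means of 39.9 and 40.1. Other lists separated every SF from every SM library by their summed FPKM. Those of erythroid cells (247 to 572 in SF, 589 to 600 in SM), tuft and microvillar cells (2.45 to 3.25 and 3.76 to 4.89) and bulb neurons (3.06 to 3.55 and 4.31 to 4.97, with Slc32a1 at 0 in SF) were lower in SF. That of bone and cartilage was higher (44.6 to 80.3 and 25.8 to 42.3), most so in the second SF library, which was lowest for 6 members. Of the tested genes of these 4 lists, Gad1 alone was called (0.762 FPKM in SF and 1.77 in SM by mean, log2 -0.86, adjusted p = 0.0298 by limma). The part of these cells in the members' values was not tested.

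For SF against CF in VNO, 0 of 10 were called (0% of all genes), 5 had an unadjusted p under 0.05 (11.0%), and the groups did not overlap in 5, all lower in SF (14.9% of all genes in this direction, 15.6% in either). These were Ano2 (log2 -0.32, adjusted p = 0.406 by limma), Adcy3 (-0.30), Omp (-0.28), Cnga2 (-0.67) and Cngb1 (-0.26). Ano2 had 5.51, 5.62 and 6.65 FPKM in SF and 8.11, 7.52 and 6.92 in CF, and Omp had 86.9, 80.6 and 97.5 in SF and 116, 101 and 106 in CF. The members' median was -0.29, against -0.10 over all genes, and all 10 estimates were below 0. By the RNA integrity numbers in the paper, every SF sample of VNO was above every CF sample. Housing therefore cannot be told apart from RNA integrity in this comparison. The summed FPKM of 3 marker lists was also lower in every SF than in every CF library, that of vomeronasal neurons (123 to 137 in SF, 140 to 146 in CF), immature olfactory sensory neurons (21.1 to 24.05 and 26.4 to 31.6) and bulb neurons (3.06 to 3.55 and 3.90 to 3.98), and their part in the members' values was not tested.
The interaction of sex and housing had 0 calls (0%) and 3 members under 0.05 unadjusted (5.26%), with all 10 estimates below 0 and the largest for Cnga2 (-1.36, adjusted p = 0.895 by limma). CF and CM did not separate: 0 members were called (0.0433%), 0 were under 0.05 unadjusted (3.94%) and 0 had groups apart (8.71%). For SM against CM, 0 were called (0%), 1 was under 0.05 unadjusted (Cnga2, 2.31%) and 1 had groups apart (Gnal, higher in SM, 7.93%).

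In OB, 8 members passed the filter, since Cnga4 and Cngb1 were too low. For SF against SM, 0 were called (0.0390% of 12808 genes), 0 were under 0.05 unadjusted (4.58%) and 0 had groups apart (8.59%). For CF against CM, 0 were called (0.0468%), 4 were under 0.05 unadjusted (5.69%) and 5 had groups apart (10.2%), 4 lower and 1 higher in CF.
Omp in OB had 29.8, 30.9 and 27.6 FPKM in CF and 37.9, 34.2 and 42.7 in CM (log2 -0.37, SE 0.099, adjusted p = 0.605 by limma). Ano2 had 0.951, 1.18 and 1.08 in CF and 1.59, 1.497 and 1.55 in CM (-0.38, SE 0.097, adjusted p = 0.561 by limma). Cnga2 had 0.329, 0.384 and 0.450 in CF and 0.620, 0.697 and 0.707 in CM (-0.41, SE 0.139, adjusted p = 0.824 by limma). The lowest OB library was a CF library for each of these genes, and for Omp and Cnga2 all CF libraries lay below all other OB libraries. The 7 olfactory sensory neuron markers summed to 74.1 to 102 FPKM in CF and 87.3 to 108 in CM, with none of the 7 at 0 in these groups. The 4 erythroid markers summed to 149 to 233 in CF and 20.9 to 124 in CM, higher in every CF library and with none called. The part of either list in these values was not tested. Adcy3 was also lower in every CF than every CM library (-0.16, adjusted p = 0.870 by limma), and Slc24a4 was higher (0.31, 0.866), with 0.932, 1.20 and 0.965 FPKM in CF and 0.691, 0.607 and 0.930 in CM. An OB library held an estimated 18.9 to 44.3 fragments of Cnga2 and 22.8 to 45.8 of Slc24a4, so their differences between groups rest on few fragments.
For SF against CF in OB, 0 were called (0.00781%), 2 were under 0.05 unadjusted (Omp and Cnga2, 2.80%) and 4 had groups apart (5.86%), with Omp, Adcy3 and Cnga2 higher and Slc24a4 lower in SF. The groups of Slc24a4 were apart only barely, with a highest SF value of 0.9310 FPKM and a lowest CF value of 0.9316. For SM against CM, 0 were called (0%), 1 was under 0.05 unadjusted (3.40%) and 1 had groups apart (7.83%), in both cases Ano2 (-0.22). The interaction had 0 calls (0.00781%) and 1 member under 0.05 unadjusted (Ano2, 4.12%).

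**Figure D5:**
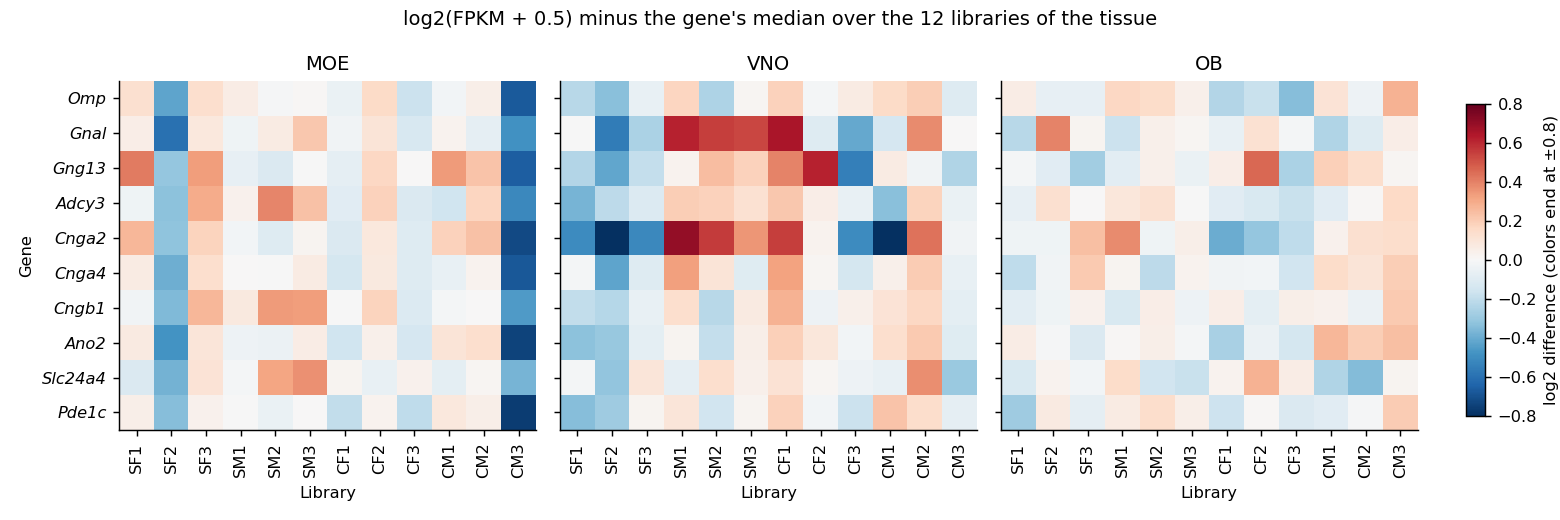
Colors give log2(FPKM + 0.5) of each member in each library minus the gene's median over the 12 libraries of the tissue, from blue (lower) to red (higher). The column of the third CM library in MOE is blue for all 10 genes, and the rows of Cnga2 and Gnal have the strongest colors in VNO.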

How the data were processed

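Expression was measured by paired-end RNA-seq of 36 libraries, from a stranded total RNA kit with ribosomal depletion and reads of 50 bases. The authors aligned pairs with TopHat2 (2.1.0) and quantified RefSeq transcripts with Cufflinks (2.2.1.0), on mm9, per the submitters' processing notes, and the strand setting is not given in the sources used here. The deposited values are FPKM with confidence limits.

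Entries were assigned to genes (99.7% of them) and summed, and genes with an entry not marked as successful were left out (6 in MOE, 2 each in VNO and OB). FPKM was not rescaled. Fragments behind a value were estimated by squaring the value over its standard error (from the confidence limits), which does not cover differences between mice. These limits did not hold counting error alone. For Gnal, 3 estimated fragments stood for 0.145 FPKM in the third SF library of MOE and 0.0312 in that of VNO. The estimates are therefore approximate and can be too low. limma 3.58.1 in R 4.3.3 was fitted with a trend on log2(FPKM + 0.5), for genes with a mean of at least 0.5, once over 36 libraries for tissues and once per tissue for sex and housing. A gene was called at a Benjamini-Hochberg adjusted p under 0.05 over all genes tested. On simulated MOE libraries the fit was checked for recovery of known changes. No libraries held identical values. Tables were made in Python 3.11.15 (pandas 2.3.3, numpy 2.4.6) and figures with matplotlib 3.10.9.

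The members, the lists and the tests were chosen with earlier results of these data known. All members are named. Of the other lists, genes are named that are the most abundant relative of a member in a tissue or the 2 highest or 2 lowest of a list, and likeness is by Pearson r. Genes of these lists named beyond this rule were chosen after their values were seen. Marker lists cover 12 cell types. Alternatives were other pseudocounts, no filter, quantile or upper quartile scaling, the top entry in place of the sum, library weights, a marker covariate, a replicate block, leaving out each library, and fitting only the libraries under comparison.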

Additional observations from a re-analysis of the deposited data

Results flagged for a closer look

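In 3 members every VNO library of SF lay below every VNO library of CF, while in OB every SF library lay above every CF library. These members were found by a search for groups that lay apart in opposite directions. Of all genes tested, 14.9% had every SF library lower in VNO, and 2.15% had every SF library higher in OB. The share of all genes with both was not counted. The log2 difference of SF from CF was -0.28 in VNO and 0.23 in OB for Omp, -0.30 and 0.16 for Adcy3, and -0.67 and 0.36 for Cnga2. By limma none passed the test (adjusted p = 0.450, 0.427 and 0.454 in VNO and 1 in OB for each). The difference between the tissues was not tested.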

How the results depend on the processing

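Of 1350 alternative values for the 30 tissue differences, 1349 kept direction and call, and Slc24a4 between VNO and OB lost its call under quantile normalisation (0.02). Of 2962 values within tissues, none of them called in the report, 2952 stayed uncalled and 10 passed the threshold, and 194 changed sign. With library weights (0.0503 to 5.61 in MOE, 0.307 to 6.18 in OB), 2 members were called in MOE between SF and SM (Gng13, Slc24a4; 1778 genes in all) and 2 in its interaction (Gng13, Cnga2; 2416 genes), and in OB 4 between CF and CM (Omp, Cnga2, Ano2, Slc24a4; 681 genes) and 1 between SM and CM (Ano2; 3143 genes), against 0 members in each without weights. The weights called far more genes of all kinds than the 13, 4, 6 and 0 without them, and the cause was not tested. On only the libraries compared, 1 member (Cnga2) was called between SF and SM in VNO, with 11 genes in all. With each library left out in turn, 10 members were called in each tissue comparison (10 to 10) and 0 within tissues (0 to 0). With the replicate block, 10 members were called in each tissue comparison and 0 in each comparison within a tissue, although over all genes it called 11 between SF and CF in MOE, against 5 without it. The paper took all tissues from each mouse but does not say whether pools of the same number share mice. The tissue fit treated all libraries as independent, and the correlations given next cannot settle the pairing. The replicate numbers were not taken to pair the libraries, since not every same-numbered pair of different groups correlated above 0.1. The correlation was above 0.1 in 3 of 18 such pairs in MOE, 7 of 18 in VNO, 2 of 18 in OB and 5 of 36 across tissues, against 2, 4 and 6 of 36 and 11 of 72 pairs with different numbers (median r in VNO 0.078 and -0.044). Cnga4 and Cngb1 in OB, at 5.0 to 14.7 and 4.67 to 29.1 fragments, are limited by depth. Cnga2 (18.9 to 44.3) and Slc24a4 (22.8 to 45.8) in OB also rest on few estimated fragments.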
